A study of Arabidopsis thaliana with 4 samples.

Results

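The guanylate-binding protein-like genes of Arabidopsis thaliana that were counted here are GBPL3 (AT5G46070), GBPL1 (AT1G03830) and GBPL2 (AT2G38840), 3 of 32833 genes in the count table. All of their listed introns were taken as well, 42 of 79373 in the table of intron scores, and 0 of 4690 retained intron events of the rMATS table fell in these genes. GBPL3 was chosen because its count differed widely between the genotypes in these libraries, and GBPL1 and GBPL2 because they belong to the same family. The genotype difference of GBPL3, in its count and in its introns, is therefore described without a test. Polyadenylated RNA of whole 7-day-old seedlings, raised on Murashige and Skoog medium plus sucrose and left untreated, was sequenced from 2 wild-type samples (Col-0, replicates 1 and 2) and 2 mutant samples (replicates 1 and 3) labelled MAC3B Q77A/D81A-GFP. The mutant seedlings carry a GFP fusion of MAC3B, a U-box ubiquitin ligase related to yeast Prp19 that works with the spliceosome, with both substitutions in its name. The labels give neither the promoter of the fusion nor the MAC3A and MAC3B alleles of the recipient plants, and no line with an unmutated fusion is among the samples. Both mutant titles hold the same further number, which may be that of a transgenic line. An effect of such a line could not be tested apart from that of the substitutions.

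Guanylate-binding proteins are large GTPases of the dynamin superfamily, and in vertebrates many of them are induced by interferon and act against intracellular pathogens. In Arabidopsis, GBPL3 is known to assemble into nuclear condensates at defence genes during immune responses, where it meets Mediator and RNA polymerase II, and to associate with the nuclear lamina. GBPL1 is known as a relative without GTPase activity that restrains GBPL3.

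The totals of counted fragments were 23436163 and 24245300 for the wild-type libraries and 23936296 and 30105517 for those of the mutant. Levels are given as CPM, counts scaled to a common library total after TMM normalization. MAC3B transcripts (AT2G33340) reached 1147 and 947 CPM in mutant seedlings, against 156 and 162 CPM in Col-0. The summed level of 5 shoot markers, such as the Rubisco subunit gene RBCS1A, was 32710 to 34089 CPM in wild type and 29972 to 31408 CPM in the mutant, and that of 5 root markers, such as the endodermal gene CASP1, was 5343 to 5395 and 5321 to 5727 CPM. None of these markers was at 0, 1 of the 5 shoot markers (CAB3) passed the test as lower, as 1.33% of all tested genes did, and 0 of the 5 root markers passed. CAB3 no longer passed among genes of at least 5 CPM (edgeR, adjusted p = 0.0696), without Col-0 replicate 1 (0.573) or without Col-0 replicate 2 (0.311), and its adjusted p went down to 1.19e-35 without mutant replicate 3. The part of these markers in the results was not tested. Between replicates the chi-square per gene was 9.79 in the mutant and 4.24 in Col-0. The labels do not say whether samples of a genotype came from separately grown plants, so the p-values measure only the spread between these samples, which may be technical. In RNA of whole seedlings, a change in the number of cells that express a gene cannot be told apart from a change in RNA per cell.

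GBPL3 lies on chromosome 5 (TAIR10, 18683319 to 18688822, plus strand) and has 14 exons, GBPL1 on chromosome 1 (961684 to 966790, minus strand) and GBPL2 on chromosome 2 (16227051 to 16232522, plus strand). No other gene in the count table overlaps any of them. None of the 3403 different 31-base words in the exons of GBPL3 occurs elsewhere in the genome, and the same was found for the 3264 words of GBPL1 and the 2151 words of GBPL2. Their counts are thus not shared with an identical stretch of another gene of that length.

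GBPL3 differed between the genotypes in its exon counts and also in the reads from its introns. Among its introns the difference was largest in the last 3, introns 11 to 13. These 3 introns and intron 5, which had the lowest mean score of the gene in the mutant, are shown from the RefSeq copy of TAIR10 on the plus strand. Capitals mark the first and last pair of bases and, where there is one, the first stop codon in frame if the intron is kept.
GBPL3 intron 5, chr5:18684780-18684926: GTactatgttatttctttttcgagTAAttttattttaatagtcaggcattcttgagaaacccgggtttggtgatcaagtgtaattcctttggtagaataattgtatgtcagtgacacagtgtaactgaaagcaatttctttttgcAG
GBPL3 intron 11, chr5:18686264-18686368: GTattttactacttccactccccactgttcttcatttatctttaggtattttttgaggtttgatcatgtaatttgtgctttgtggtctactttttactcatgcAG
GBPL3 intron 12, chr5:18686982-18687066: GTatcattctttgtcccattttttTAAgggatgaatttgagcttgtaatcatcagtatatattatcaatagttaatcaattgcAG
GBPL3 intron 13, chr5:18687145-18687314: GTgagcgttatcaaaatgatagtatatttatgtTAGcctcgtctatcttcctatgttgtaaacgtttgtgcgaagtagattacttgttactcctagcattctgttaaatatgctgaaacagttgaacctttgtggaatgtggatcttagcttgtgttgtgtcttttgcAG
All 4 start with GT and end with AG, as 41 of the 42 introns do. The exception is the intron of 23 bases listed for GBPL2, which ends with TT and is not an intron of either RefSeq transcript of that gene. The stop codon begins at base 25 of intron 5, base 25 of intron 12 and base 34 of intron 13, counted from the first base of the intron. Intron 11 is 105 bases long, a multiple of 3, and holds no stop codon in frame. No 31-base word of these 4 introns occurs elsewhere in the genome.

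GBPL3 transcripts were counted 1750 and 1723 times in wild type replicates 1 and 2, and 26815 and 30220 times in mutant replicates 1 and 3. After scaling, the Col-0 levels of 75.7 and 71.9 CPM stood against mutant levels of 1103 and 995 CPM. Both mutant libraries lay far above both wild-type libraries. The difference came to 14.2-fold, or 3.83 as log2 fold change (standard error, SE, 0.0826, edgeR, n = 2 per genotype), and was the 12th largest increase among 20483 genes tested. In the authors' deposited table the log2 fold change of GBPL3 was 3.83 with an SE of 0.0785. Leaving out any 1 library moved the log2 fold change of GBPL3 between 3.75 and 3.90.

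Levels of GBPL1 were 15.9 and 17.5 CPM in the Col-0 libraries, and mutant replicates 1 and 3 had 20.7 and 16.1 CPM. Mutant replicate 1 was the highest library for GBPL1, mutant replicate 3 lay between the wild-type libraries, and the genotypes overlapped. Its log2 fold change was 0.13 (SE 0.148, 95% interval -0.17 to 0.44; edgeR, adjusted p = 0.749 by Benjamini-Hochberg). GBPL1 therefore did not pass the threshold of 0.05, which 3.01% of the 20483 tested genes passed, 1.68% as higher and 1.33% as lower in the mutant.

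For GBPL2 the Col-0 libraries had 33.8 and 32.3 CPM, and mutant replicates 1 and 3 had 30.9 and 34.4 CPM. The mutant libraries lay on either side of the wild-type libraries. Its log2 fold change was -0.02 (SE 0.107, 95% interval -0.24 to 0.21; edgeR, Benjamini-Hochberg adjusted p = 0.969), so a rise of GBPL2 above 0.21 on the log2 scale lay outside the interval. The authors' deposited table gave 0.13 (SE 0.192, adjusted p = 0.879) for GBPL1 and -0.02 (SE 0.138, adjusted p = 0.985) for GBPL2. The sign of both small fold changes depended on single libraries: without mutant replicate 1 GBPL1 was at -0.06 and GBPL2 at 0.06, and without wild type replicate 1 GBPL2 was at 0.01.

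Per kilobase of exon, the order of the levels was GBPL3, GBPL2, GBPL1 in every library. In wild type the level was 19.3 ± 0.704 CPM per kilobase for GBPL3, 12.4 ± 0.384 for GBPL2 and 4.57 ± 0.303 for GBPL1 (mean ± SD, n = 2). In the mutant it was 274 ± 20.0 CPM per kilobase for GBPL3, 12.3 ± 0.942 for GBPL2 and 5.03 ± 0.895 for GBPL1. Neighbours in this order did not overlap in either genotype. GBPL3 made up 53.7% and 52.6% of the summed level of the 3 genes in the wild-type libraries and 94.3% and 93.7% in the mutant libraries. Among all tested genes, the level of GBPL3 per kilobase was above that of 73.0% in wild type and 98.9% in the mutant, and that of GBPL1 was above 32.9% and 35.0%.

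**Figure D1:**
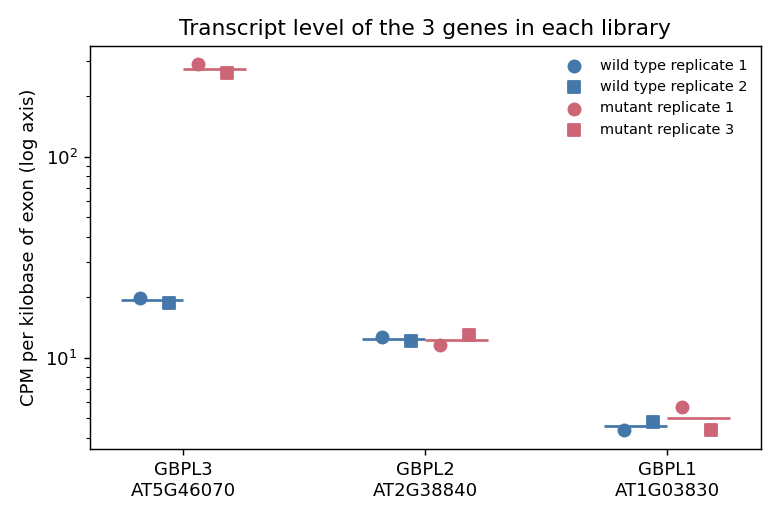
Transcript level of GBPL3, GBPL2 and GBPL1 in CPM per kilobase of exon on a log axis, 1 point per library, with a line at the mean of each genotype. GBPL3 is at 18.8 and 19.8 in wild type and at 260 and 288 in the mutant, while the genotypes overlap for GBPL2 and GBPL1.

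Coverage of the introns was deposited as a score with 2 columns per genotype. The column names do not show which replicate they hold, so they are called columns 1 and 2 of each genotype. Divided by the factor of its column (12.9 and 12.5 for wild type, 12.7 and 10.1 for mutant columns), the score behaved as read depth, that is read bases per intron base. For GBPL3, 10 of 13 introns were listed at 0 in both wild-type columns and 1, intron 12, was above 0 in both. In these 10 introns no wild-type read bases were listed. Because the GBPL3 count was much lower in wild type, this does not show that transcripts keeping an intron were absent. Intron reads are set against the gene count further below. In the mutant all 13 introns were above 0 in at least 1 column and 12 were above 0 in both. Both mutant scores lay above both wild-type scores in 11 of the 13 introns, against 6.38% of all introns in the table, and 10 of the 13 are on the authors' sheet of introns that differ by at least 4 on the log2 scale, against 2.94% of all. GBPL3 was chosen on this contrast, so these shares are printed side by side only.

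Intron 12 carried the most reads. Its score was 23.4 and 69.5 in the wild-type columns and 3558 and 2769 in the mutant columns, which corresponds to a depth of 1.81 and 5.56 reads in wild type and 281 and 274 reads in the mutant. The mean score was 68.1-fold higher in the mutant, 4.79 times the 14.2-fold difference of the GBPL3 count. Without wild-type column 1 these values were 45.5-fold and 3.20 times, and without wild-type column 2 they were 135-fold and 9.52 times. By mean score intron 12 ranked 8196 among all 79373 introns in wild type and 20 in the mutant.

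Intron 13, the last of the gene, was listed at 0 in both wild-type columns and at scores of 942 and 704 in the mutant columns, depths of 74.4 and 69.7 reads. Its difference of 9.67 in mean log2(score + 1) is the largest of the 79373 introns, and the next largest, 8.05, is that of intron 11 of the same gene. The score is not divided by the gene count, so both ranks include the 14.2-fold difference in count for which GBPL3 was chosen. Intron 11 was listed at 0 in both wild-type columns and at 361 and 194 in the mutant columns, depths of 28.5 and 19.1 reads. No fold change is given for either, because the wild-type values are 0. The mutant columns lay within 2-fold of each other for each of these 3 introns.

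Intron 1, next to the 5′ end, had mutant scores of 247 and 170 against 0 and 8.94 in Col-0, the 8.94 resting on 206 read bases. Introns 2 to 10 were lower, with mean scores in the mutant between 9.56 for intron 5 and 89.8 for intron 8. Within this stretch the mutant columns differed widely. Intron 8 had scores of 163 and 16.5 in the mutant columns, intron 3 had 76.4 and 0.632, and intron 5 had 0 and 19.1. Wild-type reads appeared in this stretch only in intron 3, at a score of 3.77 in 1 column. Intron 5 had the smallest difference of the gene, 2.17 on the log2(score + 1) scale.

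**Figure D2:**
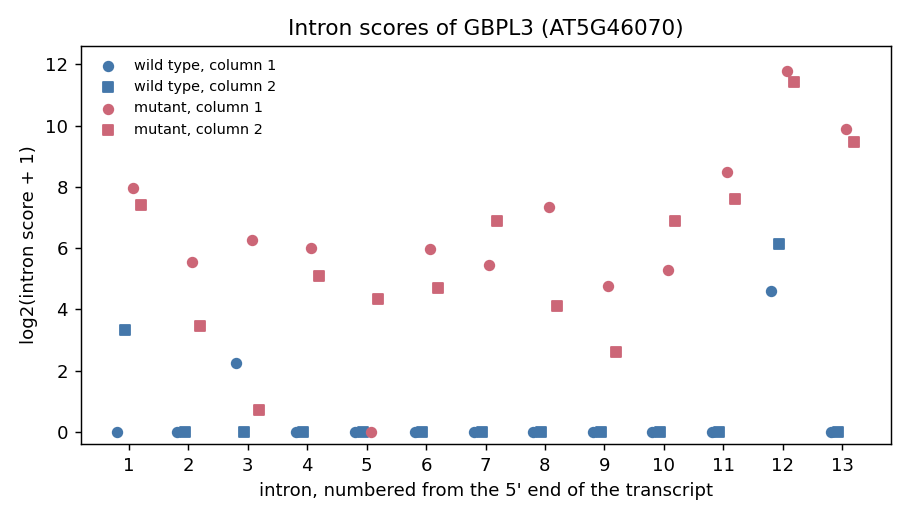
Score of each of the 13 introns of GBPL3 as log2(score + 1), numbered from the 5′ end, with 1 point per column and genotype. The mutant points of introns 11 to 13 correspond to scores of 194 to 3558, and 10 introns have both wild-type points at 0.

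The last 3 introns make up 21.4% of the intron length of GBPL3 and held 80.0% of its intron coverage in the mutant, 49.1% in intron 12 alone. Introns 11 to 13 are 105, 85 and 170 bases long and 28.2% to 36.5% G and C, within the range of 74 to 288 bases and 24.3% to 37.2% of the 13 introns of the gene. None of the 42 introns starts with the ATATCC or GTATCC letters of the minor spliceosome donor. All 13 lie within the coding sequence, and 9 of them hold a stop codon that would be in frame if the intron were kept. Stop codons further along, where a kept intron shifts the frame, were not counted.

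Reads in the introns were also set against the gene count, pooled by genotype because the column names do not give the library. GBPL3 had 861 intron read bases for 3473 fragments in wild type and 95877 for 57035 fragments in the mutant, or 0.248 and 1.68 read bases per fragment. By column the read bases were 182 and 679 for Col-0 against 49273 and 46604 for mutant columns. This ratio was 6.78 times higher in the mutant, above that of 98.2% of the 5095 genes with at least 1000 fragments per genotype and intron reads in both, whose median was 1.07. Taken instead from the mean score over the intron length, divided by the fold of the gene count, it was 7.11, and it became 4.54 without wild-type column 1 and 16.4 without wild-type column 2. Introns 1 to 10 held 0.0674 read bases per fragment in wild type and 0.337 in the mutant. For introns 11 to 13 the values were 0.181 and 1.34, so the ratio was higher in the mutant in both stretches. The wild-type value of introns 1 to 10 rests on only 234 read bases, 206 of them in intron 1 of wild-type column 2. Of the 5 genes with the profile most like that of GBPL3, given at the end, 3 have introns in the score table. MAC3B, the gene of the fusion, went from 0.352 to 0.0420 intron read bases per fragment. Its intron read bases were 2632 and 2377, while its fragments went from 7478 to 56652. AT1G59660 went from 2.61 to 1.97, and AT1G63530, with 1 intron, from 0 to 0.470. Their wild-type fragments, 387 and 245, were under the minimum of 1000 used above. The pooled values have no error, and how the authors made the score is not given in the sources used here.

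**Figure D3:**
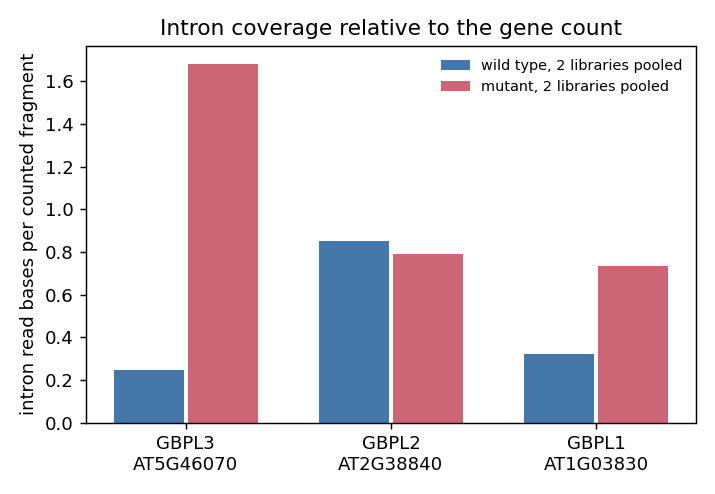
Intron read bases per counted fragment for the 3 genes, with the 2 libraries of each genotype pooled and no error bars. GBPL3 stands at 0.248 in wild type and 1.68 in the mutant, GBPL2 at 0.851 and 0.792, and GBPL1 at 0.320 and 0.736. The mutant value of GBPL1 rests mostly on intron 12 in mutant column 1.

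Few reads fell in the introns of GBPL1, a gene with 15.9 to 20.7 CPM. Of its 12 introns, 9 were listed at 0 in all 4 columns, and 3 had reads. Intron 4 had scores of 25.8 and 9.24 in Col-0 against 0 and 8.35 in mutant columns, so both wild-type columns were above both mutant columns, as for 5.05% of all introns. Intron 12 had a score of 54.3 in mutant column 1, a depth of 4.29 reads, and 0 in the other columns, the largest difference of the gene at 2.89. The 0.320 and 0.736 intron read bases per fragment of GBPL1 rest on 252 and 729 read bases in all. Of the 729, 630 came from intron 12 in mutant column 1. The wild-type value of GBPL1 was not below the 0.248 of GBPL3.

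Of the 17 introns of GBPL2, 8 were listed at 0 in all columns and 7 had reads in 1 column only. Intron 16 was highest, with scores of 0.561 and 3.44 in Col-0 and 0 and 94.6 in mutant columns, the last being a depth of 9.36 reads. Intron 10 had the largest difference towards wild type, -2.67, with scores of 0 and 39.5 against 0 in both mutant columns. None of the 17 had both mutant columns above or below both wild-type columns. The intron read bases per fragment were 0.851 in wild type and 0.792 in the mutant. No intron of GBPL1 or GBPL2 passed the limma test, and none of the 41390 introns tested did (0%, Benjamini-Hochberg adjusted p under 0.05), while 739 had an unadjusted p under 0.05.

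**Figure D4:**
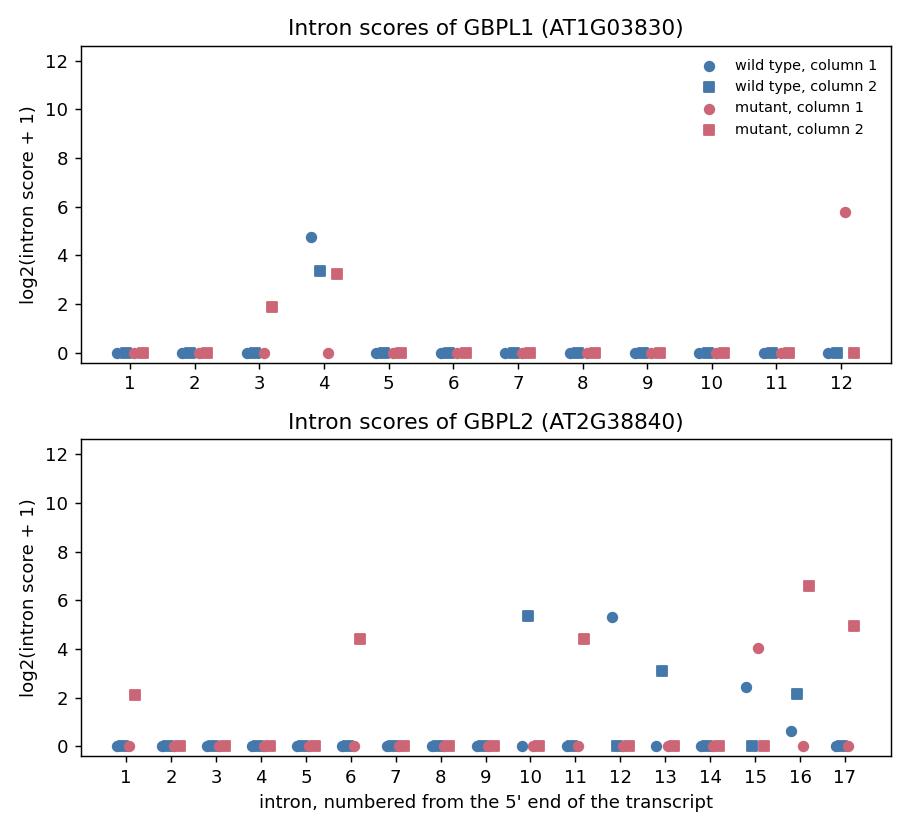
Scores of the 12 introns of GBPL1 and the 17 introns of GBPL2 as log2(score + 1), on the axis used for GBPL3, with 1 point per column and genotype. Most points are at 0, and the highest is a score of 94.6, in a mutant column of GBPL2 intron 16.

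Closer relatives by domain were followed with RHD3-type GTPases, which fuse tubules of the endoplasmic reticulum, and dynamin-related GTPases, which act in membrane fission and cell plate formation. Of the 3 RHD3-type genes tested, 0 passed, against 3.01% of all tested genes. At that share, 0 calls can be met in any list as short as those used here. The median log2 fold change of the RHD3-type genes was -0.06 against 0.00 for all tested genes. RHD3 itself had a value of 0.09 (SE 0.0735), and the weakly expressed relative AT1G72960, with the smallest p of the list, was counted 31 and 21 times in wild type and 7 and 4 times in the mutant. Both mutant counts of AT1G72960 were below both wild-type counts, but its log2 fold change of -2.41 (SE 0.763) did not pass (edgeR, Benjamini-Hochberg adjusted p = 0.0985). Of 11 tested dynamin-related genes (of 12), 0 passed, 5 had positive values and the median was 0.00. DRP3A, a gene of mitochondrial and peroxisomal division, had the smallest p, with a log2 fold change of 0.16 (SE 0.0897; edgeR, Benjamini-Hochberg adjusted p = 0.425).

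GBPL3 is known to work at the nuclear periphery, with Mediator and in salicylic acid immunity, and lists of these genes were read in the same fit. Of 14 tested genes (of 15) of the nuclear lamina, the pore basket and the nuclear envelope, 0 passed, against 3.01% of all tested genes. Of these 14, 6 had positive values and the median log2 fold change was -0.02. The basket nucleoporin gene NUP136 had the smallest p, at 0.29 (SE 0.0844; edgeR, Benjamini-Hochberg adjusted p = 0.0704), and the lamina genes CRWN1, CRWN2 and CRWN3 were at -0.08, -0.23 and -0.18. NUP136 passed with library totals alone (adjusted p = 0.0375), with no filter on low counts (0.0335) and without mutant replicate 3 (0.00117), and its adjusted p ranged from 0.00117 to 0.516 over all alternatives, DESeq2 included. The lamina gene CRWN4 was listed at 0 counts in all 4 libraries; its span overlaps that of AT5G65780.

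Of 15 Mediator subunit genes, 0 passed, against 3.01% of all tested genes, 6 had positive values and the median log2 fold change was -0.02. The smallest p was that of MED16, a tail subunit needed for salicylic acid responses, at -0.22 (SE 0.0975; edgeR, Benjamini-Hochberg adjusted p = 0.301). Of 17 tested salicylic acid immunity genes (of 18), 0 passed, against 3.01% of all tested genes, and the median was 0.17. Positive values were held by 16 of the 17, against 50.1% of all tested genes. The genes share the same 4 libraries, so their signs are not independent, and a shift of the list was not tested. Some signs changed with a library left out. SARD1 was at -0.17 without mutant replicate 3 and CBP60g at -0.04 without Col-0 replicate 2. PAD4, at -0.09 in the main fit, was at 0.14 without Col-0 replicate 1. The smallest p was that of the salicylic acid receptor gene NPR3, at 0.28 (SE 0.119; edgeR, Benjamini-Hochberg adjusted p = 0.26). ICS1, which makes the salicylic acid precursor, had 14.3 CPM in Col-0 and 14.9 CPM in mutant seedlings, and the marker gene PR1 was listed at 0 counts in all 4 libraries. At an unadjusted p under 0.05 the counts were 1 for RHD3-type, 0 for dynamin-related, 1 for nuclear periphery, 1 for Mediator and 2 for salicylic acid genes, against 14.7% of all tested genes, and DESeq2 called 0 in each list.

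**Figure D5:**
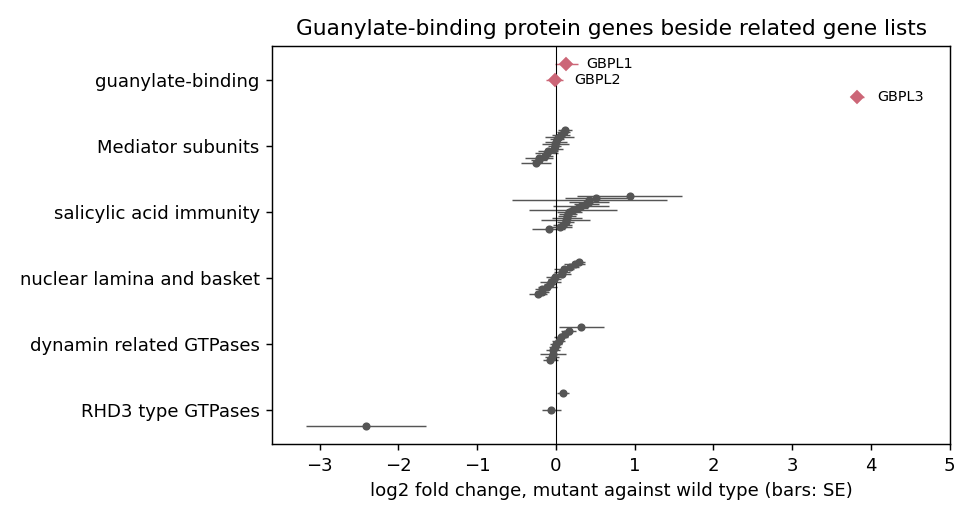
Log2 fold change (mutant against wild type) with its SE for each tested gene of the 5 lists and for the 3 guanylate-binding protein genes, n = 2 per genotype. GBPL3 stands at 3.83, and the genes of the lists lie between -2.41 and 0.94.

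Profiles over the 4 libraries were compared with 15236 genes of at least 5 CPM on average, by Euclidean distance of centred log2 CPM. Most like GBPL3 were AT1G59660, AT1G63530, AT1G72800, MAC3B (AT2G33340) and AT5G60250 (0.44, 0.49, 0.96, 1.11 and 1.24). The distance uses the counts for which GBPL3 was chosen, so it returns genes with a large rise in the mutant. The nearest, AT1G59660, had 6.70 and 9.68 CPM in Col-0 against 130 and 132 CPM in mutant libraries. AT1G72800 (2.29 CPM in wild type, 21.6 in the mutant) and AT5G60250 (1.05 and 9.13) had wild-type means under 5 CPM. On the chromosome, the gene before GBPL3 on the same strand, AT5G46060 (18681326 to 18682708), was 6.30-fold higher in the mutant (36 and 33 against 219 and 289 counts). The gene after it, AT5G46080, had a log2 fold change of -0.48 (SE 0.273; edgeR, Benjamini-Hochberg adjusted p = 0.432).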

How the data were processed

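The authors deposited raw counts per gene. Per the file headers, featureCounts 2.0.1 assigned read pairs to exons of Ensembl Plants TAIR10 release 49, with no option for strand. HISAT2 2.2.0, STAR 2.7.9a and DESeq2 1.30.1 are named in the submitters' processing notes. Which aligner made which file is not given in the sources used here. The deposited DESeq2 table holds a mean signal, log2 fold changes, a Wald score, p-values and adjusted p-values. The exon length per gene is an other kind of value deposited with the counts, used for levels per kilobase. The deposited intron score is a coverage signal: score times intron length was a whole multiple of 1 factor per column (100% of introns above 0, within 0.02). Another 8 columns with values per sample were not used. The rMATS table was deposited with p-values, and no event of it was used.

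Counts were tested in R 4.3.3 with edgeR 4.0.16 (filterByExpr, TMM, glmQLFTest, genotype as the only term, Benjamini-Hochberg at 0.05), and log2(score + 1) of introns above 0 in at least 1 column with limma 3.58.1. The plan divided intron scores by the CPM of the same library. Column names do not give the library and columns were not matched to libraries by their values, so means by genotype were used. A floor of 3 counts equals 0.0996 to 0.128 CPM by library totals alone and covers counting error only.

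Members and lists were chosen with earlier results of these data known. Named genes were, by rule, the members, the called members of each list or the one with the smallest p, the 5 most alike profiles and the neighbours. Named introns were those with the highest and lowest score and difference per gene. CRWN1 to CRWN3, RHD3, ICS1, PR1, CRWN4 and other introns were added after their values were seen.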

Additional observations from a re-analysis of the deposited data

How the results depend on the processing

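The 14.2-fold difference of GBPL3 and the missing calls of GBPL1 and GBPL2 were alike under RLE size factors, library totals, DESeq2 1.42.0 and other filters on low counts. The log2 fold change of GBPL2 turned to 0.02 (0.0197) with library totals alone. With 1 library left out, log2 fold changes ran from 3.75 to 3.90 for GBPL3, from -0.06 to 0.31 for GBPL1 and from -0.10 to 0.06 for GBPL2 (-0.057 for GBPL1 and 0.058 for GBPL2 without mutant replicate 1, 0.0147 for GBPL2 without Col-0 replicate 1). The number of genes past the threshold, 617, became 1090 with no filter and ran from 135 to 1848 when a library was left out (Col-0 replicate 1 gave 135, Col-0 replicate 2 gave 220, mutant replicate 1 gave 1006 and mutant replicate 3 gave 1848). These fits assume that a lone library varies like the pair of the other genotype. With library totals 507 of 701 called genes were higher, 72.3% against 55.9%. The list of nuclear lamina and basket genes had 1 called gene with library totals and 1 with no filter, and 0 to 1 with a library left out. Introns past the threshold, 0, became 7 over all introns of the table and 4 over introns above 0 in all columns, and 0 to 7356 with a column left out, the highest without mutant column 1.

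The median intron difference of GBPL3, 5.74 on the log2(score + 1) scale, became 8.63 with a pseudocount of 0.1 and ran from 5.10 to 5.97 with a column left out. With mutant scores divided by the 14.2-fold difference of the gene count it was 2.29, became 4.85 with a pseudocount of 0.1 and ran from 1.74 to 2.42. The medians of GBPL1 and GBPL2 were 0, and 0.94 and 1.06 over introns above 0 in at least 1 column, an alternative chosen after seeing the data. No median over introns above 0 in all columns could be given for GBPL1 and GBPL2, which have no such intron. The cause of these changes was not tested. No paired analysis was possible because the genotypes share only replicate number 1 by the sample titles. The sample descriptions and count columns number the Col-0 libraries 2 and 3, by which they share only number 3. The depth of intron reads in GBPL1 and GBPL2, at most 9.36 per base, limits what can be seen there.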
